A study of Mus musculus with 10 samples.

Results

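The autophagy machinery and its cargo receptors were examined as a group of 39 mouse genes, listed by name from the steps of the pathway, with earlier results of these data known. All 39 were found among the 57010 gene identifiers of the deposited table, and all 39 passed the filter on low values that left 15223 genes for testing. The RNA came from C2C12, a mouse myoblast line that fuses into myotubes in low-serum medium. Cells had been in differentiation medium for 3 days when adenovirus was added, and RNA was taken at 48 h. The Arrdc2 group received virus encoding Arrdc2, an arrestin-domain protein, together with Gfp. The GFP group received virus encoding Gfp only. All 10 libraries, 5 per group, therefore came from virus-exposed wild-type cells of a single line, kept in insulin-containing medium with horse serum, and no library without virus entered the comparison. The labels do not say that the 5 replicates of a group were separate cultures, so the p-values rest on the spread among these samples, part of which may be technical.

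Macroautophagy encloses cytoplasm in a double membrane, the autophagosome, which then fuses with the lysosome. The ULK kinase complex starts the process, a class III PI3-kinase complex marks the membrane with PI3P, and a ubiquitin-like conjugation system attaches ATG8 proteins (the LC3 and GABARAP families) to lipid. Receptors such as p62, the product of Sqstm1, tie cargo to ATG8 on the growing membrane. In skeletal muscle the pathway is known for clearing damaged mitochondria and protein aggregates and for its activity in wasting.

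TFEB and its relatives bind known letters in promoters of many autophagy genes, and RefSeq promoters (build GRCm38.p6) were found for 32 of the 39 genes. Pik3c3, Atg16l1, Atg12, Rb1cc1, Becn1, Map1lc3a and Bnip3l had no entry and were not searched. Atg12, Rb1cc1 and Bnip3l among them are called as changed below. The core of the site bound by TFEB and TFE3, the letters CACGTG on either strand (the letters read the same on both), lay in 250 bases before the start of 3 genes, Atg3, Atg5 and Atg7, and in 6.02% of all 32851 promoters. They are shown with the promoter of Sqstm1, the gene with the largest change in the group, which held no match. Capitals mark CACGTG, and each sequence runs 5′ to 3′ on the gene's own strand and ends at the base before the annotated start.
Atg3 (chr16:45158579-45158828, plus strand): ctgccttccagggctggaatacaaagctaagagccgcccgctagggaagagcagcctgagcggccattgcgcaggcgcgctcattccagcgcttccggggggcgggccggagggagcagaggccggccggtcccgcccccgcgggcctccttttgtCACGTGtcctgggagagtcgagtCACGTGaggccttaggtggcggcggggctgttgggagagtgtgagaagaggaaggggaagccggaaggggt
Atg5 (chr10:44268089-44268338, plus strand): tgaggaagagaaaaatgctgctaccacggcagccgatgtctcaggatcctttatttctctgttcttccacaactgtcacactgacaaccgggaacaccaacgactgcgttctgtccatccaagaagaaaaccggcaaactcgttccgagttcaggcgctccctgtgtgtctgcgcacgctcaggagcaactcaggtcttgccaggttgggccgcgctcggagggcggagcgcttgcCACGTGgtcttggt
Atg7 (chr6:114670846-114671095, plus strand): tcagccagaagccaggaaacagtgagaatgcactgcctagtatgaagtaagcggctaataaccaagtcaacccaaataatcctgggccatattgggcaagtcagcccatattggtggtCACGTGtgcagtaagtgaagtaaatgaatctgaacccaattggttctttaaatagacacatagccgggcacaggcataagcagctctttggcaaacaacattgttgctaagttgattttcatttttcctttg
Sqstm1 (chr11:50210821-50211070, minus strand): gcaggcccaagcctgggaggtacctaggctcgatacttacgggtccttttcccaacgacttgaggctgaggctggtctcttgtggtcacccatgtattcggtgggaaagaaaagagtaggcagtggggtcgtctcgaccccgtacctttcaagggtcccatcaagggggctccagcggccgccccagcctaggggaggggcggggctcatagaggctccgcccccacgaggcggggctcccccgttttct
The Atg3 promoter held 2 copies, which began 94 and 71 bases upstream of the start. The copies in Atg5 and Atg7 began 14 and 132 bases upstream. A core of the antioxidant response element, TGACNNNGC on either strand, was found in Atg13, Tax1bp1 and Ulk2, none of which held CACGTG, and in 10.16% of all promoters. The letters TGATGNAA, a core of the amino acid response element, were found in 0 of the 32 promoters and in 3.45% of all. A match describes the letters only, and its absence refers to this window. The window lies before a listed start, and whether that start is the one used in these cells was not examined.

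Depth, recovered from the deposited values as described under the processing, was 23.50 to 28.65 M (mega) reads in Arrdc2 libraries and 18.93 to 26.03 M in GFP libraries (exact 2-sided permutation p = 0.0714). The Arrdc2 gene itself had 118 to 158.3 normalised reads in Arrdc2 libraries and 89.84 to 124.3 in GFP libraries, 1.29-fold higher (95% interval 1.09 to 1.51; limma adjusted p = 0.0178). The ranges of the groups overlapped. Whether reads from the virus-borne Arrdc2 were counted under this entry is not known here, so the fold need not measure the overexpression reached. Although the labels call the cells myoblasts, all 12 myotube markers examined were tested, that is, above the filter. Their summed reads were 374730 to 420710 in Arrdc2 libraries and 412790 to 440280 in GFP libraries. Higher and lower refer here to a limma adjusted p under 0.05 over all tested genes, of which 14.5% were higher and 15.8% lower. Of 12 myotube markers 0 were higher and 3 lower (Myh8, Acta1 and Des). Of 6 markers of cycling cells 5 were higher and 0 lower. Cycling-cell markers summed to 13840 to 18205 reads in Arrdc2 libraries and 12212 to 14003 in GFP libraries. Myoblast markers summed to 14091 to 15230 reads in Arrdc2 libraries and 12588 to 16492 in GFP libraries, with 2 of 6 higher (Myf5 and Pax7). Of 6 fibroblast markers 3 reached the filter and 1, Dcn, was higher, with sums of 10287 to 12551 reads in Arrdc2 libraries and 9438 to 12866 in GFP libraries. Of 5 adipocyte markers 1, Pparg, reached it and was lower, and of 5 macrophage markers 1 reached it and did not pass the test. Adipocyte markers summed to 260.0 to 310.0 reads in Arrdc2 libraries and 300.5 to 356.9 in GFP libraries, and macrophage markers to 90.56 to 98.89 in Arrdc2 libraries and 90.07 to 97.54 in GFP libraries. Tcf21, Plin1 and Adgre1, which were not tested, were at 0 in all 5 Arrdc2 libraries and at no more than 1.14 normalised reads in any GFP library. Fewer cells of a type and less RNA per cell cannot be told apart in bulk RNA, and the part of these markers in the results below was not tested.

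Of the 39 autophagy genes, 10 passed the threshold, a Benjamini-Hochberg adjusted p under 0.05 in limma over all tested genes. This is 25.6% of the group, against 30.3% of all tested genes, so that the group as a whole was not called more often than genes at large. In the higher direction there were 4 genes (Wipi1, Bnip3l, Fundc1 and Atg9a), where the background was 14.5% of tested genes, and in the lower direction 6 (Sqstm1, Wipi2, Atg3, Atg12, Rb1cc1 and Gabarapl1), where it was 15.8%. The median log2 difference, Arrdc2 minus GFP, was −0.0051 over the 39 genes and 0.0027 over all tested genes. The libraries of the groups did not overlap for 7 of the 39 genes, or 17.9%, against 19.7% of all tested genes. An exact 2-sided permutation test gave p = 0.00794, the smallest that 5 libraries against 5 allow, for each of these 7 genes, 0.0159 for Wipi1 and Bnip3l, and 0.0556 for Atg9a. Without Arrdc2 library 10, 7 genes were higher and 6 lower. Among all called genes 47.9% were higher on the deposited scale, against 37.4% after centring on library medians and 63.3% with reads scaled by library totals, so the balance of directions depends on the scaling. One gene, Sqstm1, stood far from the other 38. It ranked 31st by p-value among all 15223 tested genes, and 56th by size of change on the deposited scale. That scale shrinks differences towards 0, and ranks by fold from recovered reads were not taken. The next autophagy gene by p-value, Wipi2, ranked 792nd.

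**Figure D1:**
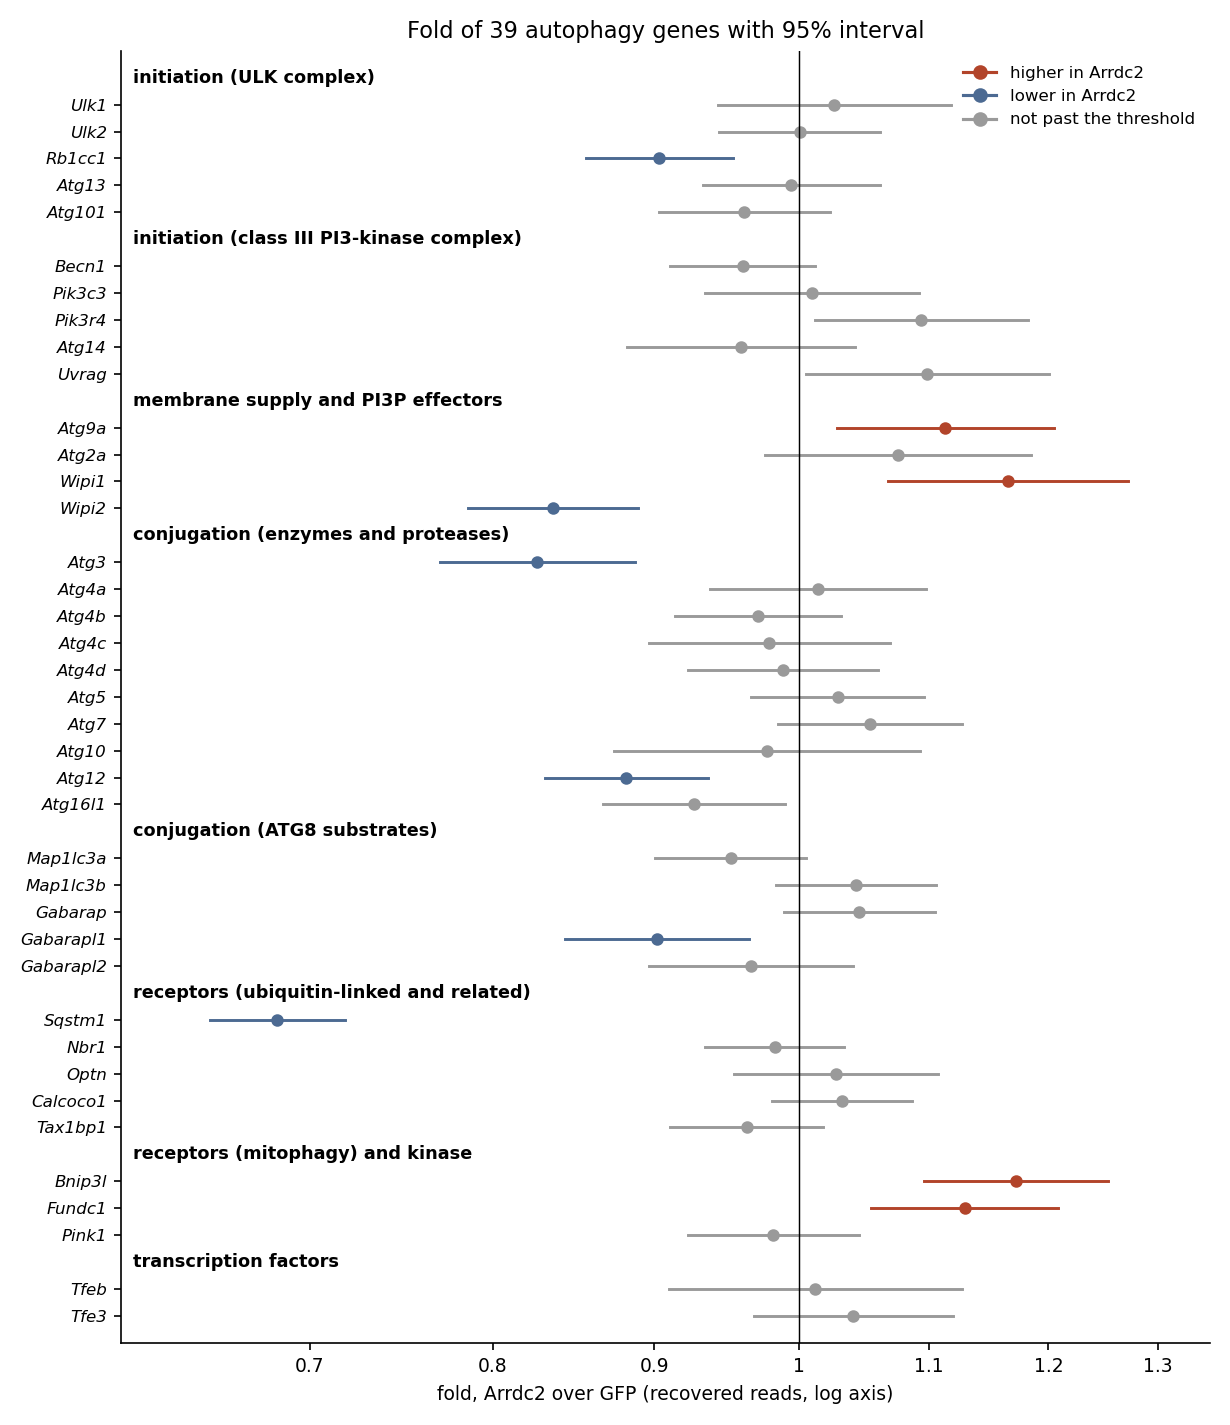
Fold of each of the 39 autophagy genes, Arrdc2 over GFP, on a log axis, grouped by role; points are folds from recovered reads (5 libraries per group), lines their 95% intervals, and colours the limma call. Sqstm1 lies at 0.684, while the other 38 genes lie between 0.826 and 1.17.

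By role, 1 of 10 initiation genes passed (0 higher, 1 lower), 3 of 4 genes of membrane supply and PI3P binding (2 higher, 1 lower), 3 of 15 conjugation genes (0 higher, 3 lower), 3 of 8 receptor and mitophagy genes (2 higher, 1 lower), and 0 of 2 transcription factors. These counts are 10%, 75%, 20%, 37.5% and 0% of their roles, against 30.3% of all tested genes (14.5% higher, 15.8% lower). Median log2 differences were −0.0018 for initiation, 0.09 for membrane supply, −0.017 for conjugation and 0.0030 for receptors. No test compared the roles with each other.

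The ULK complex starts autophagosome formation. Rb1cc1 encodes FIP200, the scaffold on which the complex assembles. In Arrdc2 libraries 6, 7, 9, 10 and 11 it had 2559, 2587, 2695, 2638 and 2709 normalised reads, against 2971, 2847, 2789.6, 2947 and 3048 in GFP libraries 3 to 7. All 5 Arrdc2 libraries lay below the lowest GFP library. Rb1cc1 averaged 2638 ± 65.4 reads in Arrdc2 libraries and 2920.4 ± 103 in GFP libraries (SD, n = 5 each) and was 1.11-fold lower (95% interval 1.05 to 1.17; limma adjusted p = 0.0057). The kinases of the complex did not pass. Ulk1 averaged 1633 ± 132 reads in Arrdc2 libraries and 1588 ± 121 in GFP libraries, and Ulk2 averaged 1624 ± 71.1 in Arrdc2 libraries and 1621 ± 36.4 in GFP libraries. Their folds were 1.03 (0.943 to 1.12) and 1.00 (0.944 to 1.06). Atg13 and Atg101, which encode the regulatory pair of the complex, had folds of 0.995 and 0.961. Across the 4 members that did not pass, the 95% intervals reached from 0.903 to 1.12.

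The class III PI3-kinase complex makes PI3P at the site of formation, and 0 of its 5 genes passed. Pik3r4, encoding the regulatory subunit VPS15, was nearest to the threshold within it. It had 858, 879.6, 893, 786 and 795 reads in Arrdc2 libraries 6, 7, 9, 10 and 11, against 774, 785, 727, 836 and 729 in GFP libraries 3 to 7. The groups overlapped: GFP library 6 lay above Arrdc2 libraries 10 and 11. Means were 842 ± 48.8 reads in Arrdc2 libraries and 770.4 ± 45.1 in GFP libraries (SD, n = 5 each), a fold of 1.09 (1.01 to 1.18; limma adjusted p = 0.073). Pik3r4 passed without GFP library 6 or without Arrdc2 library 10 (limma adjusted p = 0.0369 and 0.0369). With all libraries kept it passed under library weights (0.0367) and with voom on total reads (0.0179). Uvrag, which encodes a Beclin 1 partner of the endosomal and later steps, had a fold of 1.098 (1.01 to 1.20; limma adjusted p = 0.101), with 0.0402 without Arrdc2 library 10, 0.0433 without Arrdc2 library 11 and 0.0281 with voom on total reads. Becn1 (Beclin 1), Pik3c3 (the catalytic subunit VPS34) and Atg14 (the subunit that directs the complex to autophagosome sites) had folds of 0.960, 1.01 and 0.959. Intervals in the complex reached from 0.882 to 1.20.

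The genes that feed membrane to the growing structure and read its PI3P moved in both directions. The pair of PI3P-binding WIPI proteins differed in sign. Wipi2 encodes the one known for recruiting the ATG16L1 complex. It had 2585, 2446, 2423, 2382 and 2477 reads in Arrdc2 libraries 6, 7, 9, 10 and 11, against 3065, 2934, 2674, 3078 and 3003 in GFP libraries 3 to 7. The groups did not overlap, and GFP library 5 was the lowest of its group. Wipi2 averaged 2463 ± 76.6 reads in Arrdc2 libraries and 2951 ± 165 in GFP libraries (SD, n = 5 each), 1.196-fold lower (1.125 to 1.27), with a limma log2 difference of −0.20 ± 0.03 (SE) and an adjusted p of 0.00015. Wipi1, which is used as a marker of forming autophagosomes, had 4398, 4072, 3725, 3359 and 3533 reads in Arrdc2 libraries 6, 7, 9, 10 and 11, against 3198, 3326, 3354, 3421 and 3016 in GFP libraries 3 to 7. Arrdc2 libraries spread widely, with library 6 highest, and library 10 lay below GFP library 6, so 4 of 5 Arrdc2 libraries were above all GFP libraries. Means were 3818 ± 419 reads in Arrdc2 libraries and 3263 ± 160.1 in GFP libraries (SD, n = 5 each), 1.17-fold higher (1.07 to 1.27; log2 difference 0.17 ± 0.05 SE; limma adjusted p = 0.0085). Their opposite signs were not put to a test of their own.

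Atg9a encodes the membrane protein of the vesicles that seed the autophagosome. It had 1451, 1388, 1433, 1175 and 1279 reads in Arrdc2 libraries 6, 7, 9, 10 and 11, against 1209.7, 1175, 1169, 1254 and 1214 in GFP libraries 3 to 7. Arrdc2 library 10 lay within the GFP range and the other 4 above it. Means were 1345 ± 117 reads in Arrdc2 libraries and 1204 ± 34.6 in GFP libraries (SD, n = 5 each), 1.11-fold higher (1.03 to 1.20; limma adjusted p = 0.0334). An exact 2-sided permutation test of Atg9a gave p = 0.0556, and the limma call was lost when GFP library 3, 4, 5 or 7 or Arrdc2 library 6, 7 or 9 was left out (limma adjusted p of 0.0579, 0.0715, 0.067, 0.0543, 0.0834, 0.0755 and 0.0927). Reads of Ankzf1, which overlaps exons of Atg9a on the opposite strand, averaged 557.6 ± 36.6 in Arrdc2 libraries and 561.6 ± 46.5 in GFP libraries. Atg2a, encoding a lipid transfer protein, had a fold of 1.075 (0.975 to 1.19; limma adjusted p = 0.238) and passed without Arrdc2 library 10 (0.0388). That library had the lowest value of its group for Wipi1 and Atg9a and the highest sum of cycling-cell markers, 18205 reads. Arrdc2 library 9 had the next highest sum, 17959 reads, and its 3725 Wipi1 and 1433 Atg9a reads lay above all GFP libraries. The part of cycling cells in these values was not tested.

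Of the 15 conjugation genes, 3 were lower (Atg3, Atg12 and Gabarapl1) and 0 higher as reported. Lower calls were thus 20% of the role, against 15.8% of all tested genes. With quantile normalization or voom on total reads, Gabarapl1 was lost and Gabarap passed as higher (limma adjusted p of 0.0146 and 0.0499 for Gabarap). Atg3 encodes the E2-like enzyme that hands ATG8 to its lipid and has the pair of CACGTG copies shown above. It had 1369, 1461, 1320.0, 1497 and 1443 reads in Arrdc2 libraries 6, 7, 9, 10 and 11, against 1778, 1685, 1587, 1674 and 1868 in GFP libraries 3 to 7. All 5 Arrdc2 libraries were below all GFP libraries. Means were 1418 ± 72.1 reads in Arrdc2 libraries and 1718 ± 108 in GFP libraries (SD, n = 5 each), 1.21-fold lower (1.13 to 1.299; log2 difference −0.20 ± 0.04 SE; limma adjusted p = 0.00029). Atg5 and Atg7, whose promoters also hold the letters, had folds of 1.03 (0.966 to 1.10) and 1.05 (0.985 to 1.13) and did not pass.

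Atg12 encodes the ubiquitin-like protein joined to ATG5 to form the E3-like part of the system. It had 1737, 1855, 1817, 1863 and 1842 reads in Arrdc2 libraries 6, 7, 9, 10 and 11, against 2075, 2069, 2044, 1940.3 and 2214 in GFP libraries 3 to 7. The groups did not overlap, and GFP library 6 was nearest to the Arrdc2 libraries. Atg12 averaged 1823 ± 51.2 reads in Arrdc2 libraries and 2068 ± 97.7 in GFP libraries (SD, n = 5 each) and was 1.13-fold lower (1.07 to 1.20; limma adjusted p = 0.0023). Atg16l1, encoding the protein that places the ATG12-ATG5 conjugate on membrane, had a fold of 0.927 (0.867 to 0.990; limma adjusted p = 0.0729). It passed without GFP library 5 (0.0464), without Arrdc2 library 11 (0.0318), with median centring (0.0404) and with library weights (0.0381). Atg10, encoding the E2-like enzyme for ATG12, had a fold of 0.977. The 4 genes of the ATG4 proteases, which trim ATG8 and remove it from lipid, had folds between 0.971 and 1.01 and did not pass.

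ATG8 genes differed more among themselves in level than between the groups. Per kilobase (kb) of exon, Gabarap had 4009 ± 148 reads in Arrdc2 libraries and 3837 ± 154 in GFP libraries, and Map1lc3a had 2785 ± 88.8 in Arrdc2 libraries and 2929 ± 112 in GFP libraries (SD, n = 5 each). Gabarapl1 followed with 881.7 ± 51.7 reads per kb in Arrdc2 libraries and 976.9 ± 44.7 in GFP libraries. Map1lc3b and Gabarapl2 were lowest, at 457.8 ± 22.5 and 331.6 ± 21.8 reads per kb in Arrdc2 libraries, against 439 ± 14.1 and 343.5 ± 10.3 in GFP libraries. The order was the same in both groups, and neighbours in it were further apart than their spread. Length here is the union of annotated exons, 7.517 kb for Map1lc3b, so a gene with long alternative ends comes out low. Gabarap took 47.35 ± 0.952% of the summed level per kb of the 5 genes in Arrdc2 libraries and 45.0 ± 0.5135% in GFP libraries.

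Gabarapl1 was the ATG8 gene that passed. It had 1631, 1711, 1888, 1848 and 1796 reads in Arrdc2 libraries 6, 7, 9, 10 and 11, against 1952, 1895, 1897, 1973 and 2116 in GFP libraries 3 to 7. The groups did not overlap, but Arrdc2 library 9, at 1888, lay close to GFP libraries 4 and 5, at 1895 and 1897. Means were 1775 ± 104 reads in Arrdc2 libraries and 1966 ± 90.0 in GFP libraries (SD, n = 5 each), 1.11-fold lower (1.04 to 1.19; limma adjusted p = 0.0197). The call was lost without GFP library 7 (0.0643), Arrdc2 library 6 (0.0527) or Arrdc2 library 7 (0.0513). Folds of the other 4 were 0.952 for Map1lc3a, 0.966 for Gabarapl2, 1.04 for Map1lc3b and 1.05 for Gabarap, with intervals that reached from 0.896 to 1.11.

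**Figure D2:**
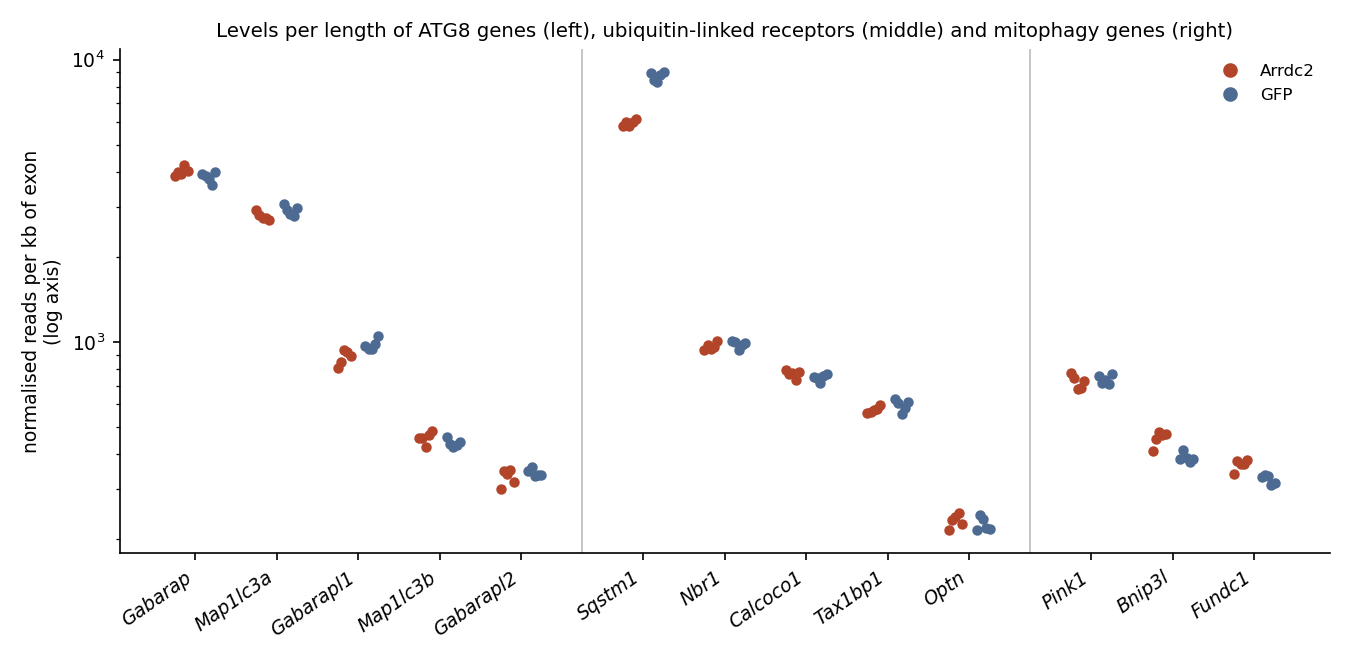
Normalised reads per kb of exon in each library (points; Arrdc2 left of GFP for each gene; log axis) for ATG8, ubiquitin-linked receptor and mitophagy genes. Sqstm1 was highest in both groups, with 5964 ± 157 reads per kb in Arrdc2 libraries and 8728 ± 302 in GFP libraries (SD, n = 5 each), and its groups are separate.

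Sqstm1 showed the largest difference among the 39 genes. It encodes p62, a receptor that binds ubiquitin on cargo and ATG8 on membrane and is itself degraded by autophagy. It had 19441, 20239, 19557, 20108 and 20736 reads in Arrdc2 libraries 6, 7, 9, 10 and 11, against 30096, 28455, 27999.6, 29622 and 30282 in GFP libraries 3 to 7. The groups were far apart, and each varied little. Sqstm1 averaged 20016 ± 528 reads in Arrdc2 libraries and 29291 ± 1013 in GFP libraries (SD, n = 5 each), 1.46-fold lower (1.39 to 1.54). The limma log2 difference was −0.44 ± 0.03 (SE), with an adjusted p of 3.13e-09. The strand setting of the counting is not known here, so reads of overlapping genes on opposite strands may be mixed. Mrnip, which overlaps exons of Sqstm1 on the opposite strand, had 165 ± 19.3 reads in Arrdc2 libraries and 148 ± 7.95 in GFP libraries. Rb1cc1, Map1lc3b and Atg4d also have such partners: 4732440D04Rik had 106.2 ± 14.3 reads in Arrdc2 libraries and 101 ± 16.2 in GFP libraries, Zcchc14 had 1768 ± 129 in Arrdc2 libraries and 1954 ± 96.6 in GFP libraries, and Kri1 had 978.3 ± 34.5 in Arrdc2 libraries and 1120.0 ± 71.2 in GFP libraries (SD, n = 5 each).

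The other receptors of this kind did not pass. Nbr1, a relative of p62 with the same domains for ubiquitin and ATG8, averaged 6617 ± 189 reads in Arrdc2 libraries and 6735 ± 204 in GFP libraries (SD, n = 5 each; fold 0.983, 0.934 to 1.03). Tax1bp1, a ubiquitin-binding receptor, and Calcoco1, a receptor for endoplasmic reticulum and Golgi, had folds of 0.963 and 1.03. Optn, encoding optineurin, a receptor in mitophagy and in clearing bacteria, had a fold of 1.03. Across these 4 genes the intervals reached from 0.910 to 1.11 (Arrdc2 over GFP), and the interval of Sqstm1 on the same scale reached from 0.651 to 0.718.

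Of the 3 mitophagy genes 2 were higher, where the background was 14.5% of all tested genes. Bnip3l encodes NIX, a receptor on the outer mitochondrial membrane. It had 1580.4, 1750.5, 1846, 1798 and 1823 reads in Arrdc2 libraries 6, 7, 9, 10 and 11, against 1479, 1592, 1502, 1445 and 1482 in GFP libraries 3 to 7. Arrdc2 library 6 lay just below GFP library 4 and the other 4 Arrdc2 libraries above all GFP libraries. Bnip3l averaged 1759.5 ± 106 reads in Arrdc2 libraries and 1500.0 ± 55.3 in GFP libraries (SD, n = 5 each), 1.17-fold higher (1.096 to 1.25; log2 difference 0.17 ± 0.03 SE; limma adjusted p = 0.00095). Its pseudogene Bnip3l-ps had 15.86 ± 4.31 reads in Arrdc2 libraries and 14.14 ± 3.01 in GFP libraries, few beside the gene.

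Fundc1 encodes another receptor of the outer mitochondrial membrane. It had 803, 889, 868, 871 and 899.9 reads in Arrdc2 libraries 6, 7, 9, 10 and 11, against 783, 793, 786, 730.5 and 743 in GFP libraries 3 to 7. The groups did not overlap, with Arrdc2 library 6 nearest to the GFP libraries. Fundc1 averaged 866 ± 37.7 reads in Arrdc2 libraries and 767 ± 28.1 in GFP libraries (SD, n = 5 each), 1.13-fold higher (1.05 to 1.21; limma adjusted p = 0.0081). Pink1, encoding the kinase that marks damaged mitochondria with phospho-ubiquitin, did not pass, with a fold of 0.982 (0.922 to 1.04). Per kb, Pink1 was the most abundant of the 3 in both groups, with 723.2 ± 38.4 reads in Arrdc2 libraries and 736.1 ± 25.3 in GFP libraries.

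**Figure D3:**
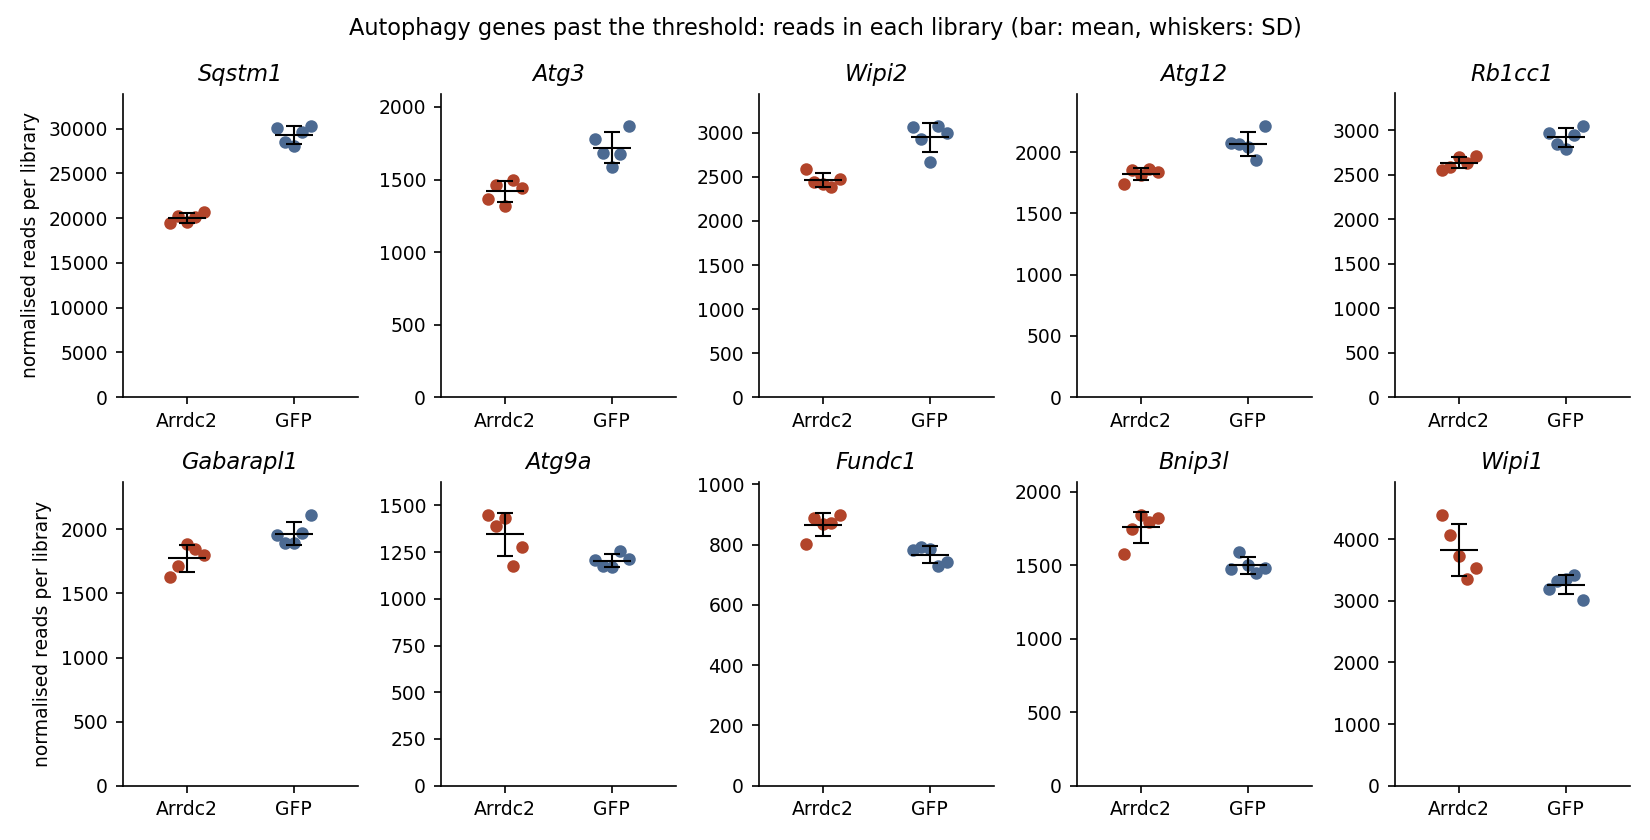
Normalised reads of the 10 autophagy genes past the threshold in each library (points; bar, mean; whiskers, SD; n = 5 per group; axes start at 0). In 7 genes the groups are separate, whereas in Wipi1, Bnip3l and Atg9a 1 Arrdc2 library each reaches the GFP range.

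The transcription factors TFEB and TFE3 are known for inducing lysosome and autophagy genes, and their RNA did not pass. Tfe3 had 1396, 1276, 1433, 1264 and 1236 reads in Arrdc2 libraries 6, 7, 9, 10 and 11, against 1322, 1271, 1295, 1289 and 1164 in GFP libraries 3 to 7. The groups overlapped over most of their range. Means were 1321 ± 87.4 reads in Arrdc2 libraries and 1268 ± 61.2 in GFP libraries (SD, n = 5 each), a fold of 1.04 (0.968 to 1.12; limma adjusted p = 0.411). Tfeb averaged 432.4 ± 41.9 reads in Arrdc2 libraries and 425.5 ± 36.5 in GFP libraries, a fold of 1.01 (0.910 to 1.13). RNA levels do not report the location of these proteins in the cell.

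The rest of the pathway was read from a list of 66 further genes, all of them tested. Of these 6 were higher and 12 lower, 27.3% in all, against 30.3% of tested genes, and their median log2 difference was −0.0142. By step, 3 of 14 further initiation and nucleation genes passed, 0 of 3 conjugation genes, 8 of 19 receptors and cargo adaptors, 3 of 15 genes of autophagosome-lysosome fusion and 4 of 15 upstream regulators.

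Bnip3, the close relative of Bnip3l and likewise a mitophagy receptor, showed the largest rise. It had 1280.0, 1329, 1404, 1332 and 1384 reads in Arrdc2 libraries 6, 7, 9, 10 and 11, against 916, 987, 917, 794 and 966 in GFP libraries 3 to 7. The groups were well separated. Bnip3 averaged 1346 ± 49 reads in Arrdc2 libraries and 916 ± 74.9 in GFP libraries (SD, n = 5 each), 1.47-fold higher (1.37 to 1.59; limma adjusted p = 3.56e-07). Rtn3, encoding a receptor for tubules of the endoplasmic reticulum, was 1.08-fold higher (limma adjusted p = 0.021), and its call was lost without GFP library 6 (0.0622) or Arrdc2 library 9 (0.061).

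Chaperone-assisted autophagy takes up damaged muscle proteins through BAG3 and the small heat shock protein HSPB8. Both genes were lower. Hspb8 averaged 5817 ± 220.4 reads in Arrdc2 libraries and 7529 ± 382 in GFP libraries (SD, n = 5 each), 1.29-fold lower (limma adjusted p = 2.22e-06), and Bag3 was 1.22-fold lower (limma adjusted p = 0.00088). The groups did not overlap for either gene. Stub1, listed beside them, had a fold of 1.06 (0.998 to 1.12) and did not pass (limma adjusted p = 0.132). Stbd1, encoding a glycogen receptor, was 1.27-fold lower (limma adjusted p = 0.00044). Vcp, encoding the p97 segregase that extracts ubiquitylated proteins, was 1.13-fold lower (limma adjusted p = 0.00047). Phb2, encoding a receptor of the inner mitochondrial membrane, and Usp30, encoding a deubiquitylase that restrains mitophagy, were 1.08- and 1.11-fold lower (limma adjusted p of 0.0204 and 0.018). Phb2 lost its call without GFP library 3 (0.0588), and Usp30 without GFP library 7 (0.0554) or Arrdc2 library 11 (0.0551).

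Among initiation genes Atg9b, the paralogue of Atg9a, was 1.297-fold higher (limma adjusted p = 0.0028), with 513.9 ± 44.9 reads in Arrdc2 libraries and 400.7 ± 56.9 in GFP libraries (SD, n = 5 each). Trp53inp1, a p53 target whose protein binds ATG8, was 1.21-fold higher (limma adjusted p = 0.00046). Bcl2, encoding an inhibitor of Beclin 1, was 1.14-fold lower (limma adjusted p = 0.0409). The Bcl2 call was lost without GFP library 3, 4, 6 or 7 or Arrdc2 library 9, 10 or 11, with limma adjusted p between 0.052 and 0.0985. Of the upstream regulators, Keap1, encoding the ubiquitin ligase adaptor that holds down NRF2 and is bound by p62, was 1.14-fold higher (limma adjusted p = 0.00074). Prkaa1, encoding a catalytic subunit of AMPK, was 1.12-fold higher (limma adjusted p = 0.00099). Nfe2l2, encoding NRF2, was 1.10-fold lower (limma adjusted p = 0.0261), and Foxo1, a transcription factor of muscle atrophy, was 1.12-fold lower (limma adjusted p = 0.0408). Neither call held throughout: that of Nfe2l2 was lost without GFP library 4 or 7 or Arrdc2 library 6, 7 or 9 (limma adjusted p of 0.0581 to 0.0753), and that of Foxo1 without GFP library 5, 6 or 7 or Arrdc2 library 9, 10 or 11 (0.0553 to 0.116).

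Of 15 fusion genes 3 passed, and these were lower. Lower calls were thus 20% of the step, near the 15.8% of all tested genes. Ykt6, encoding a SNARE of the autophagosome, was 1.13-fold lower (limma adjusted p = 0.0011), with 4053 ± 104 reads in Arrdc2 libraries and 4586 ± 165 in GFP libraries (SD, n = 5 each). Vps33a, encoding a subunit of the HOPS tether, and Epg5, encoding another tether, were 1.095- and 1.097-fold lower (limma adjusted p of 0.0205 and 0.0339). Vps33a lost its call without GFP library 3 (0.0637), and Epg5 without GFP library 3, 6 or 7 or Arrdc2 library 9 or 10 (0.0621 to 0.0995). Vps33a and Epg5 were also lost with quantile normalization and with voom on total reads. The other 12 fusion genes had folds between 0.929 and 1.06.

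**Figure D4:**
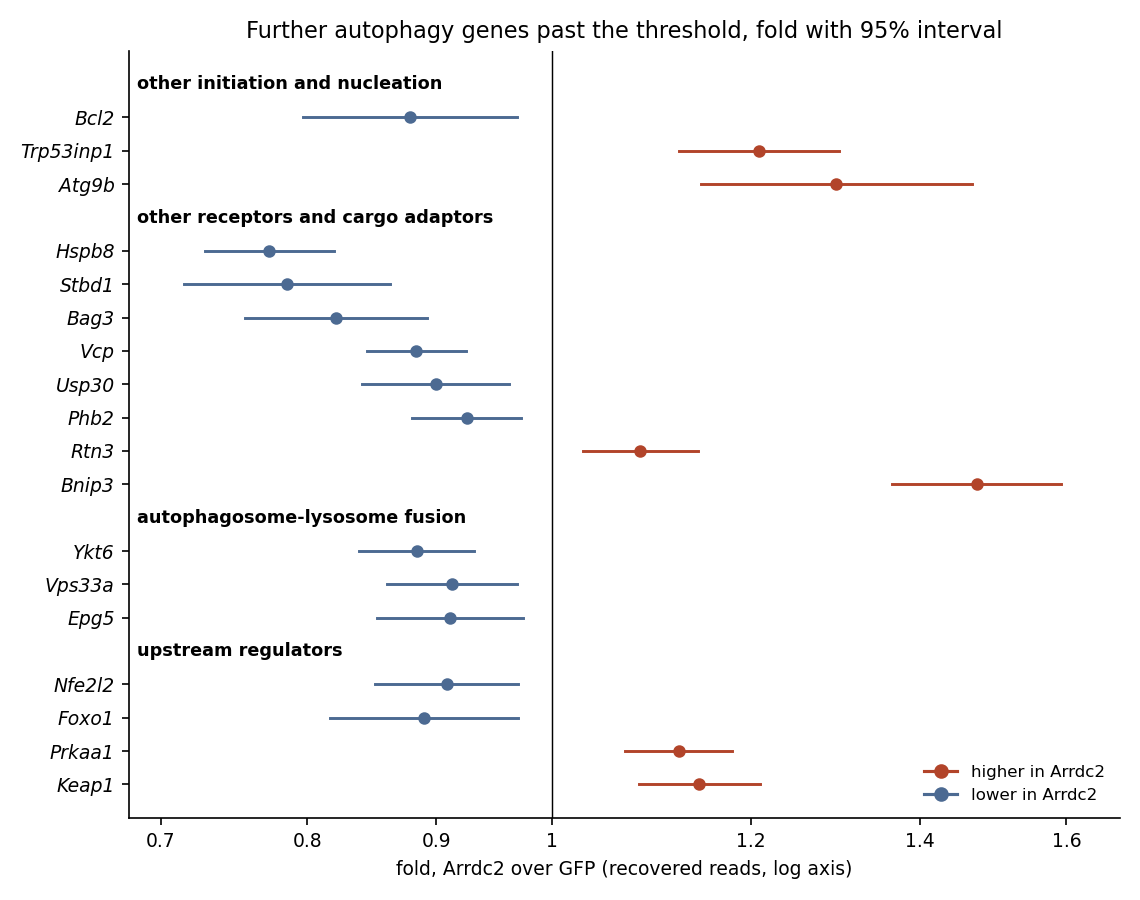
Folds, Arrdc2 over GFP, of the 18 further autophagy genes past the threshold (log axis; points, folds from recovered reads of 5 libraries per group; lines, 95% intervals). Bnip3 at 1.47 and Hspb8 at 0.773 mark the ends of the range.

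The genes most like Sqstm1 across the 10 libraries, after each group's mean was taken out, were Atl1 (r = 0.986), Gm10232 (0.982), Tor1aip2 (0.975), Washc2 (0.968) and Ddit3 (0.961). These were the 5 highest of all tested genes over 10 points that share library depth, and they are given as a description. Among them Ddit3, which encodes the stress factor CHOP, was itself lower in Arrdc2 libraries. Its limma log2 difference was −0.43 ± 0.04 (SE), with an adjusted p of 1.41e-07. The fold of Ddit3 from recovered reads, Arrdc2 over GFP, was 0.651, against 0.684 for Sqstm1. Washc2 was lower as well (log2 difference −0.09 ± 0.03 SE; limma adjusted p = 0.0388), and Atl1, Gm10232 and Tor1aip2 did not pass.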

How the data were processed

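The authors deposited log2 values from a regularized log transform (rlog), 1 column per library. The submitters' processing notes name GRCm39 as the build, STAR 2.7.10a and DESeq2 1.30.1. How reads were counted, with which annotation and strand setting, is not stated in the sources used here. The deposited values were tested with limma 3.58.1 in R 4.3.3 (group only, mean-variance trend, 2-sided), for genes with a mean rlog of at least 3, with Benjamini-Hochberg adjustment over all 15223 of them and a threshold of 0.05. Rlog shrinks differences towards 0. Whole reads were therefore solved for by inverting the penalised fit: in 16054 genes held out of that fit, 99.38% of values were whole to within 0.1 reads (20% would be by chance), and 89.18% above a mean of 10000 reads. Normalised reads are these reads divided by size factors; folds and their 95% intervals come from limma voom on them, and log2 differences and adjusted p-values from the deposited values. The scripts were tested on simulated data.

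Libraries are named by column number, which differs from the numbering in the labels. No 2 libraries of a group agreed within sampling noise. Symbols were matched by identifier to GENCODE vM21 (52029 of 57010), which also gave exon lengths. Members and lists were chosen with earlier results of these data known. All members are accounted for by role; full values are given for genes past the threshold and for the lowest adjusted p in roles without one. Counts for 1 gene in 1 library lay between 174 and 30262, and the median within-group coefficient of variation was 4.90% in Arrdc2 libraries and 4.09% in GFP libraries. Alternatives changed the filter, scaling, weights, variance trend, scale of values or libraries used.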

Additional observations from a re-analysis of the deposited data

Results flagged for a closer look

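Of 114 groups of 5 libraries checked (both groups for the 39 autophagy genes and the 18 further genes past the threshold), 1 held a library far from the others, where chance gives about 1 in 20. It was Trp53inp1 in the GFP group: GFP library 4 had 1940 normalised reads, and the other 4 GFP libraries had 1656 to 1682. The gap was 0.907 of the group's range, above Dixon's critical value of 0.71 for 5 values. Trp53inp1 was higher in Arrdc2 libraries.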

How the results depend on the processing

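Over all tested genes, 4616 passed as reported and 3697 to 4931 under the other settings of filter, scaling, weights, trend and scale of values. Calls among the 39 genes numbered 10 as reported and 8 to 12 under those settings. The share of calls that were higher was 47.9% as reported, 37.4% after centring each library on its median, and 63.3% with voom on recovered reads scaled by total reads, so the split of directions depends on the scaling. With voom and total reads, 7 autophagy genes were higher, and of the further autophagy genes 12 were higher and 5 lower; with quantile normalization 13 further genes were higher. The cause was not tested. No called gene among the 39 autophagy genes or the further autophagy genes changed sign. With 1 library left out, all calls numbered 3920 to 4598 (higher 1845 to 2233, lower 2075 to 2365), calls among the 39 genes 8 to 13 (higher 3 to 7, lower 5 to 7), and calls among the further genes 13 to 20 (higher 5 to 9, lower 7 to 13). The 7 higher genes came without Arrdc2 library 10, and the 7 lower further genes without GFP library 7. Besides leave-outs, Gabarapl1 was lost without a filter, with quantile normalization and with voom on total reads (limma adjusted p of 0.0541, 0.0523 and 0.0854), and Atg9a without a filter and with median centring (0.0883 and 0.0603). Calls were gained by Gabarap with quantile normalization and voom on total reads (0.0146 and 0.0499), by Pik3r4 with library weights and voom on total reads (0.0367 and 0.0179), by Uvrag with voom on total reads (0.0281) and by Atg16l1 with median centring and library weights (0.0404 and 0.0381). Of the further genes, Bcl2, Foxo1, Epg5, Nfe2l2, Usp30, Vps33a and Phb2 were lost under 1 to 4 of these settings each (limma adjusted p of 0.051 to 0.219). Sqstm1, Wipi2, Atg3, Atg12, Rb1cc1, Wipi1, Bnip3l and Fundc1 passed under all 18 alternatives. No paired analysis was possible because the columns do not carry the replicate numbers of the labels. The lowest count of an autophagy gene in a library was 174 reads, and how far depth limits small changes was not tested. The 95% intervals of the 29 autophagy genes not called reached from 0.867 to 1.20 in fold.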

Other observations

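Averaged over the 4 genes of membrane supply and PI3P binding, the deposited log2 level was 11.12, 11.05, 11.03, 10.90 and 10.97 in Arrdc2 libraries 6, 7, 9, 10 and 11, against 10.97, 10.97, 10.95, 11.04 and 10.93 in GFP libraries 3 to 7. Arrdc2 library 6 was the highest of the 10 and Arrdc2 library 10 the lowest. The same libraries lay at opposite ends of the second principal component of the tested genes, at 6.449 for Arrdc2 library 6 and −6.825 for Arrdc2 library 10.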
